A study of Mus musculus with 3 samples.

Results

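Fatty acid oxidation and peroxisome genes were examined in 3T3-L1 adipocytes exposed to glucose oxidase. The list held 41 genes for the carnitine shuttle, mitochondrial and peroxisomal β-oxidation and the peroxins, which build peroxisomes. A member was measured where a probe set of the array was annotated to that gene only. This held for 40 of the 41 members, with 75 probe sets, out of 18194 genes measured in all. Cpt1b, the muscle form of carnitine palmitoyltransferase 1, was on 1 probe set shared by 3 genes and was not measured.

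The 3 samples formed a single group. They were 3T3-L1 cells, a clonal mouse fibroblast line, differentiated into adipocytes before the exposure. The labels give neither its dose nor the length of exposure. Glucose oxidase is an enzyme that releases hydrogen peroxide as it oxidises glucose. The source label calls the cells insulin resistant, and no genetic change or second agent is named. The tissue label names preadipocytes, whereas the growth protocol describes adipocytes. Of 10 measured adipocyte markers, 9 were above the background limit described below (Lep, the leptin gene, was not), among them the adiponectin gene Adipoq at a log2 intensity of 14.52, 14.48 and 14.46 in replicates 1, 2 and 3. Of 8 preadipocyte and fibroblast markers, 7 were also above it, without Cd34. The means of these 7 were 13.91 (Col3a1), 13.24 (Dlk1), 12.75 (Col1a1), 11.97 (Fn1), 10.82 (Pdgfra), 10.60 (Pdgfrb) and 10.50 (Thy1). Of 6 macrophage markers, Lyz2 (mean 11.19), Cd14 (8.83) and Csf1r (8.70) were above it, and Adgre1, Cd68 and Ptprc were not. Of 4 endothelial markers, Kdr (8.29) was above it, and Pecam1, Cdh5 and Tek were not. Of 5 liver markers, Cyp2e1 (10.14) and Ttr (8.49) were above it, and Alb, Apoa1 and Fgb were not. Of 5 skeletal muscle markers, Ckm (8.25) was above it, and Myh1, Acta1, Myog and Mb were not. Of all genes measured, 54.4% were above it. Control arrays were not analysed here, so each value is a level after treatment, and no change with treatment can be given or tested. Nothing read here tells whether the replicates were separate cultures, so their spread may be technical.

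Fatty acids are broken down by β-oxidation, in which each turn of the cycle shortens an acyl-CoA through dehydrogenation, hydration, a second dehydrogenation and thiolysis. Long chains enter mitochondria as acylcarnitines, and the electrons from the first step pass through the electron transfer flavoprotein to the respiratory chain. Peroxisomes shorten very long and branched chains, and their first step is carried out by oxidases that make hydrogen peroxide. White adipocytes mainly store fatty acids, and many genes of both pathways are known targets of peroxisome proliferator-activated receptors (PPARs).

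Stretches of DNA are shown here because they stand upstream of the genes on which the results turn. These are the stretch between the starts of Hadha and Hadhb, which encode the α and β subunits of the mitochondrial trifunctional protein, the stretch before Acadm, a known PPAR target, and those before Cpt1a, which was above background, and Cpt1c and Ehhadh, which were not. Sequences are from RefSeq (build GRCm38.p6) and end at the base before the annotated start. Capitals mark GGGCGG (the GC box), CCAAT and AGGTCA (the half-site of nuclear receptors such as the PPARs) on either strand.
Hadha to Hadhb, chr5:30154981-30155252, plus strand: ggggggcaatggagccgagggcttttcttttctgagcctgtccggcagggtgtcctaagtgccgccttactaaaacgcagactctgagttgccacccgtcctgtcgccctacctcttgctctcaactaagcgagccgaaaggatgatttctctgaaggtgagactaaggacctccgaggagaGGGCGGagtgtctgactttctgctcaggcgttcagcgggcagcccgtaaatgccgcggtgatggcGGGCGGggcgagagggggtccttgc
Acadm, chr3:153944644-153944893, minus strand: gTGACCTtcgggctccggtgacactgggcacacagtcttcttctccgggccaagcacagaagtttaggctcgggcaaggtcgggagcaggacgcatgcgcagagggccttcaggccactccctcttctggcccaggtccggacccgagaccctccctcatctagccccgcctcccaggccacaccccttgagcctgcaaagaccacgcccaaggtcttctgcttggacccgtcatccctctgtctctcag
Cpt1a, chr19:3323051-3323300, plus strand: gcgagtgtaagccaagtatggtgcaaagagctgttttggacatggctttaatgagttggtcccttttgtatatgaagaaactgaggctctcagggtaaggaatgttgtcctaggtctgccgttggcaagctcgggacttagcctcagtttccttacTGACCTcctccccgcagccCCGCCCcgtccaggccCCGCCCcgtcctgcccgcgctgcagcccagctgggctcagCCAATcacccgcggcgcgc
Cpt1c, chr7:44974852-44975101, minus strand: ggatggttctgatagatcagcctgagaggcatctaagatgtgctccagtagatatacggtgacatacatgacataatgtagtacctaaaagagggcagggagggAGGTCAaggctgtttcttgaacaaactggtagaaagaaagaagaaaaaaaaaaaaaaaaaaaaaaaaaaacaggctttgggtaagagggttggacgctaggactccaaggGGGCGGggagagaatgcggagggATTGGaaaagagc
Ehhadh, chr16:21787835-21788084, minus strand: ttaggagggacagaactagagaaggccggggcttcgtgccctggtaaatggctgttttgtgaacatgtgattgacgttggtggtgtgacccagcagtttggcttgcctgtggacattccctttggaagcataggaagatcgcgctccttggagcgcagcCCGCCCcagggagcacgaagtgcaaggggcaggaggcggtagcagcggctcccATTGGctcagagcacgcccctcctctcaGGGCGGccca

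Hadha and Hadhb run in opposite directions from starts with 272 bases between them, and both GC boxes of that stretch lie nearer the start of Hadhb. Acadm holds 1 AGGTCA match and no GC box, whereas Cpt1a holds 1 AGGTCA, 2 GC boxes and 1 CCAAT. Cpt1c holds 1 of each, and Ehhadh holds 2 GC boxes and 1 CCAAT. A window of 250 bases was found for 33 members. Among the 31 of them above background, the GC box was in 21 (67.7%), CCAAT in 12 (38.7%) and AGGTCA in 4 (12.9%), beside 65.7%, 40.1% and 12.85% of the 8041 genes above background with a window. The same motifs were in 35.4%, 37.5% and 15.8% of all 27025 genes with a window. The consensus PPAR element is a direct repeat of AGGTCA with 1 base between the copies. Its exact letters were in none of the 33 members and in 0.041% of all genes. At that share none would be likely among 33 genes, so its absence here says nothing of PPAR control. TATAAA was in 2 of the 31 (6.45%), the peroxin genes Pex14 and Pex16, beside 7.54% of genes above background. The members' shares were thus near those of other genes above background, and a match describes the letters of the window only.

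Values are log2 of the deposited intensities. A gene was taken as above background where at least 1 of its probe sets exceeded a log2 intensity of 7.58 in each array, the 95th percentile over the means of 83 probe sets that target taste, vomeronasal or olfactory receptor genes. By this rule 38 of the 40 measured members were above background, beside 54.4% of all genes. The exceptions were Cpt1c and Ehhadh. All measured acyl-CoA dehydrogenase, hydratase-to-thiolase, auxiliary enzyme, flavoprotein and peroxin genes passed. Of the members' 75 probe sets 63 (84%) were above the limit, beside 45.1% of all 34958 probe sets with 1 gene. Where a gene had several probe sets, its level was read from the one with the highest mean. Probes differ in how strongly they bind, so levels of different genes were not ranked against each other.

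**Figure D1:**
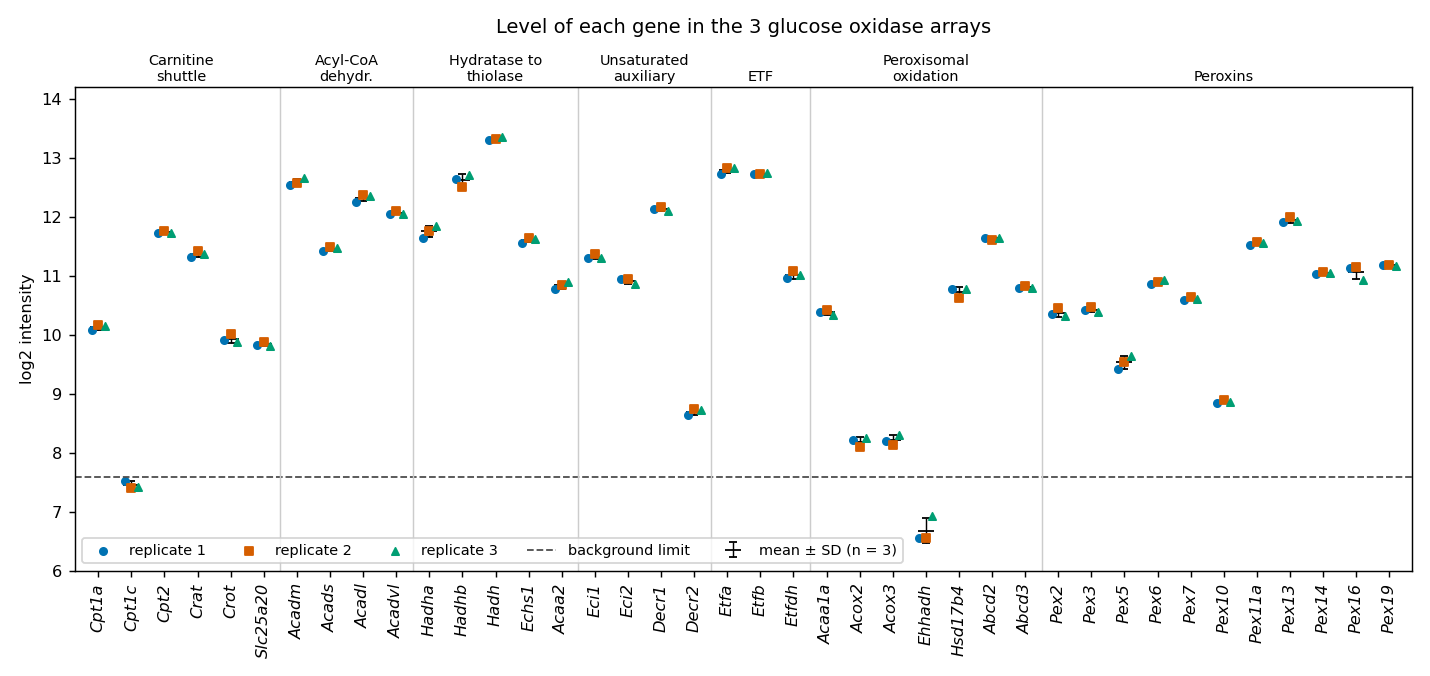
Log2 intensity (y axis) of the 40 measured genes (x axis, grouped by role) after glucose oxidase, where each replicate has its own symbol, bars give the mean and SD (n = 3) and the dashed line is the background limit of 7.58. In Cpt1c and Ehhadh all 3 replicates lie below the line, and in the other 38 genes all 3 lie above it. Heights of different genes are not comparable.

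In the carnitine shuttle, Cpt1a, which encodes the enzyme that commits long-chain fatty acids to mitochondrial entry and is inhibited by malonyl-CoA, was at a log2 intensity of 10.08, 10.17 and 10.15 in replicates 1, 2 and 3. Its form best known from the brain, Cpt1c, was at 7.53, 7.41 and 7.43, below the limit in each array but by no more than 0.18. Slc25a20, the carrier that exchanges acylcarnitine for carnitine across the inner membrane, was at 9.83, 9.88 and 9.81. Cpt2, which turns acylcarnitine back into acyl-CoA, was at 11.74, 11.75 and 11.73, and its arrays differed by only 0.028. Crat, which acts on acetyl groups, was at 11.33, 11.42 and 11.37, and Crot, the peroxisomal enzyme for medium chains, at 9.91, 10.01 and 9.87. With the probe set of highest mean, replicate 2 was the highest array in all 5 shuttle genes above background, by small margins. This was so for 35.5% of all genes above background. Other probe sets above the limit differed. One of Cpt1a, at 8.89, 8.76 and 8.96, was lowest in replicate 2, and one of Crat, at 10.88, 10.84 and 10.71, was highest in replicate 1. A further one of Crat, at 8.04, 8.11 and 8.10, and one of Slc25a20, at 8.26, 8.41 and 8.37, were highest in replicate 2.

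The 4 acyl-CoA dehydrogenases, which carry out the first step of the mitochondrial cycle, are named for the chain length they act on. Acadvl (very long chains) was at 12.06, 12.10 and 12.05, and Acadl (long chains) at 12.26, 12.37 and 12.36. Acadm (medium chains) was at 12.55, 12.58 and 12.65, and Acads (short chains) at 11.42, 11.49 and 11.48. The lowest array of each of these genes exceeded the limit by at least 3.84.

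The trifunctional protein carries out the last 3 steps on long chains. Hadha was at 11.65, 11.77 and 11.85 in replicates 1, 2 and 3, and Hadhb at 12.64, 12.51 and 12.71. With these probe sets Hadha was lowest in replicate 1 and Hadhb in replicate 2. A second Hadhb probe set, at 12.23, 12.33 and 12.22, was highest in replicate 2, so the order of the arrays did not hold within the gene. For shorter chains, the hydratase gene Echs1 was at 11.56, 11.64 and 11.62, the dehydrogenase gene Hadh at 13.30, 13.32 and 13.35, and the thiolase gene Acaa2 at 10.78, 10.84 and 10.89. With these probe sets the 3 genes were lowest in replicate 1. A further probe set of Hadh, at 9.47, 9.28 and 9.45, was lowest in replicate 2. One of Acaa2, at 10.83, 10.83 and 10.78, was lowest in replicate 3. The remaining probe set of each, at 12.41, 12.47 and 12.43 for Hadh and 10.02, 10.05 and 10.07 for Acaa2, was lowest in replicate 1. Without the _x_at probe sets, whose probes can bind other transcripts, the level of Hadh was 12.44 in place of 13.32.

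The auxiliary enzymes deal with the double bonds of unsaturated fatty acids. Eci1, the mitochondrial enoyl-CoA isomerase, was at 11.31, 11.36 and 11.31, and Eci2, an isomerase found in peroxisomes as well, at 10.95, 10.95 and 10.86. The dienoyl-CoA reductase gene of mitochondria, Decr1, was at 12.14, 12.17 and 12.10, with a second probe set at 9.37, 9.42 and 9.50. Its peroxisomal counterpart Decr2 was at 8.64, 8.74 and 8.72, which exceeded the limit by at least 1.05.

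The electron transfer flavoprotein takes electrons from the acyl-CoA dehydrogenases. Its subunit genes Etfa and Etfb were at 12.74, 12.84 and 12.84, and at 12.72, 12.73 and 12.74. Etfb had the smallest spread of the 38 members above background, an SD of 0.0082 (n = 3). Etfdh, which encodes the oxidoreductase that passes the electrons on to ubiquinone, was at 10.96, 11.08 and 11.01. A second Etfdh probe set was below the limit throughout, at no more than 4.24.

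In peroxisomal oxidation the middle steps of the cycle are carried out by bifunctional enzymes. Hsd17b4, the D-bifunctional protein, was at 10.78, 10.63 and 10.78. Ehhadh, the L-bifunctional enzyme, was at 6.56, 6.55 and 6.92, below the limit in all 3 arrays, and its replicate 3 stood apart from the others by 0.37. Ehhadh had only 1 probe set with a single gene. The oxidase genes lay closer to the limit. Acox2, known for branched chains and bile acid precursors, was at 8.21, 8.10 and 8.25, and Acox3, known for branched chains, at 8.20, 8.13 and 8.30. Each exceeded the limit by at least 0.52 and also exceeded a stricter limit of 8.05, the 99th percentile of the receptor probe sets. The thiolase gene Acaa1a was at 10.38, 10.42 and 10.34, from probe sets of a kind that can cross-hybridise.

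The half-transporters of the peroxisomal membrane carry acyl-CoA into the organelle. Abcd3, also known as PMP70, was at 10.80, 10.83 and 10.80. Abcd2, which transports very long chains, was at 11.65, 11.61 and 11.65 with the probe set of highest mean. All 4 Abcd2 probe sets were above the limit, but they did not agree on the order of the arrays. One was at 11.63, 11.52 and 11.40 and another at 8.29, 8.13 and 7.99, both highest in replicate 1 and lowest in replicate 3, while the fourth, at 7.73, 7.67 and 7.84, was highest in replicate 3.

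All 11 measured peroxin genes were above background. Pex3, Pex16 and Pex19 act together to place proteins in the peroxisomal membrane. They were at 10.43, 10.47 and 10.39 (Pex3), at 11.13, 11.16 and 10.93 (Pex16), and at 11.18, 11.19 and 11.17 (Pex19). Pex16 was lower in replicate 3 than in either other array, whereas the arrays of Pex19 differed by only 0.022.

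Pex5 and Pex7 encode the cytosolic receptors that bring enzymes to the peroxisome. Pex5 was at 9.42, 9.55 and 9.64, with a second probe set at 9.10, 9.19 and 9.14, and Pex7 was at 10.60, 10.64 and 10.61. The receptors dock on the products of Pex13, at 11.92, 12.00 and 11.93, and Pex14, at 11.035, 11.065 and 11.051. A second Pex13 probe set was at 7.88, 8.05 and 7.95, near the limit. The ubiquitin ligase genes Pex2 and Pex10, needed to recycle the receptor, were at 10.35, 10.45 and 10.33, and at 8.85, 8.89 and 8.86. A second Pex2 probe set, at 8.32, 8.25 and 7.99, was highest in replicate 1 and lowest in replicate 3. Pex6, an ATPase that extracts the receptor, was at 10.86, 10.90 and 10.92, and its 5 probe sets were all above the limit. Pex11a, which acts in peroxisome division, was at 11.53, 11.57 and 11.56, and its second probe set at 11.20, 11.26 and 11.30.

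Several members were measured by probe sets that fell on different sides of the limit. Of the 24 members with more than 1 probe set, this was so for 10 (41.7%), beside 46.5% of the 9012 genes with several probe sets. They were Cpt1a, Cpt2, Crot, Acadl, Hadhb, Etfdh, Acox3, Abcd3, Pex16 and Pex19. The second probe set of Acadl was at 4.92, 4.95 and 5.02. That of Abcd3 was at 4.31, 4.08 and 4.08, and that of Cpt2 at 6.34, 6.28 and 6.23. The third Cpt1a probe set, at 7.61, 7.42 and 7.56, lay across the limit, above it in replicate 1 only. In the other 14 members with several probe sets, each of them was above the limit. With the median over a gene's probe sets as its level, 14 of the 40 levels moved by over 1.5-fold, among them Pex13 to 9.95 and Decr1 to 10.78.

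**Figure D2:**
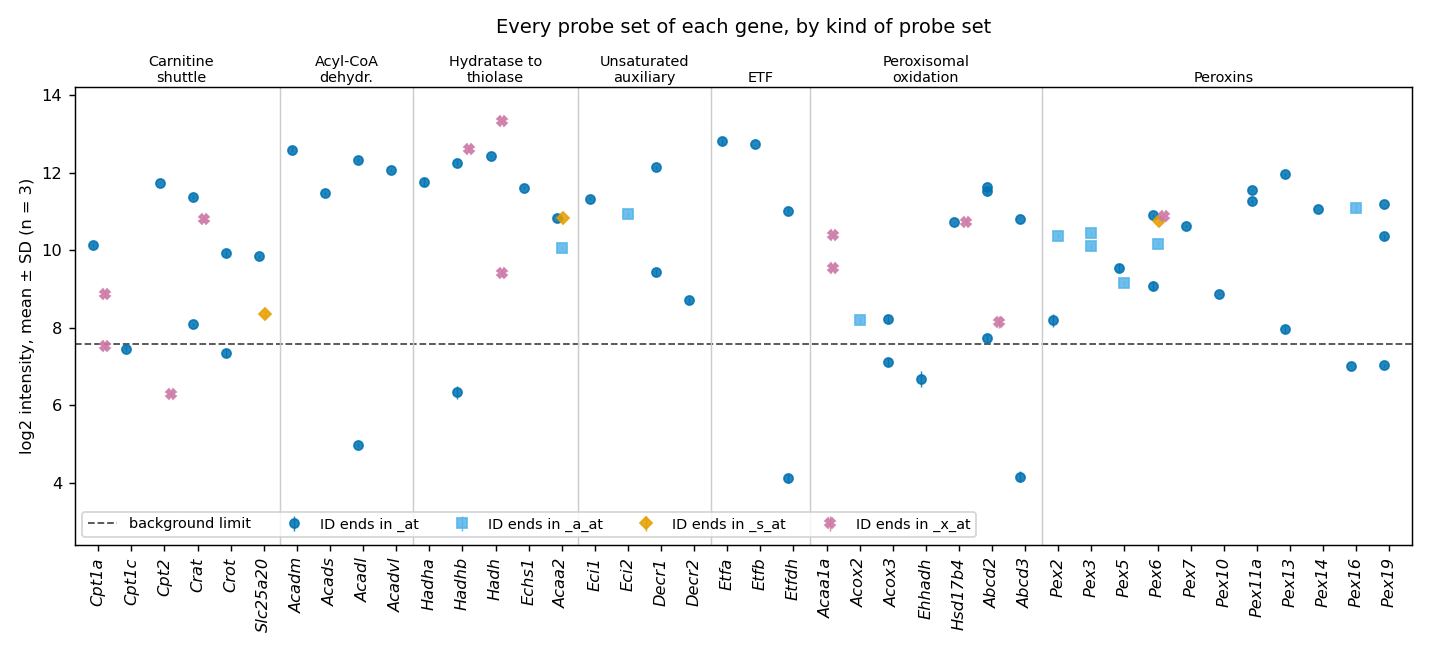
Mean log2 intensity (y axis) of every probe set of each gene (x axis, grouped by role), with the SD over the 3 arrays as bars, the kind of probe set by symbol and the background limit of 7.58 as a dashed line. Probe sets of 10 genes fall on both sides of the line, and those of Cpt1c and Ehhadh lie below it.

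The arrays agreed closely for these genes. The median SD of the 38 members above background was 0.043 on the log2 scale, beside 0.048 for all 9889 genes above background, and at a log2 level of at least 10 it was 0.041 for 31 members, beside 0.040 for 3637 genes. Without replicate 2 the median SD was 0.028 for the members, beside 0.043 for all genes. With 1 probe set per gene, the SD of the members ran up to 0.13 in Pex16. Other probe sets above the limit spread more, with an SD of 0.17 and a range of 0.33 in Pex2, and 0.15 and 0.30 in Abcd2. A range between arrays above 0.2, which is a 1.15-fold difference, was found in 2 of the 38 members, Pex5 at 0.22 and Pex16 at 0.23, beside 7.24% of all genes above background. For a given probe set a range over 2 arrays cannot exceed that over 3, so leaving out an array tends to lower this count. It was 0 without replicate 3, 1 (Pex16) without replicate 1 and 2 without replicate 2. The shares of all genes above background were then 2.01%, 2.90% and 4.61%. With the median over probe sets only Abcd2 was past 0.2. Hadha and Hadhb were just under it, at 0.198 and 0.199. By role, the median SD ran from 0.034 for the peroxins to 0.059 for the electron transfer flavoprotein.

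**Figure D3:**
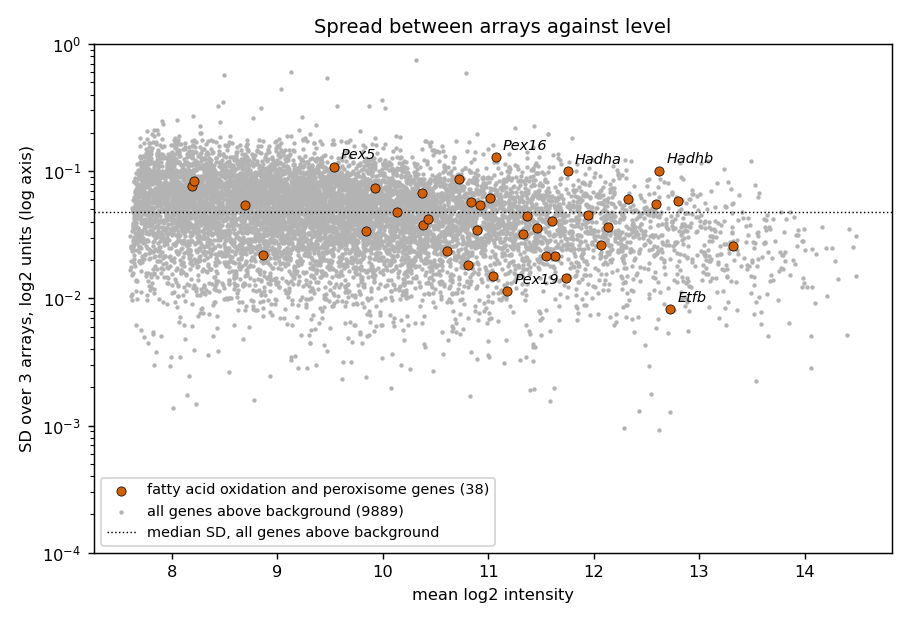
SD over the 3 arrays (y axis, log scale, log2 units) against mean log2 intensity (x axis) for the 38 fatty acid oxidation and peroxisome genes and for all 9889 genes above background, whose median SD is the dotted line. The members lie within the cloud of other genes, with Pex16 at the upper end of the members and Etfb at the lower end.

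Within this small spread, the members leaned to replicate 2. It was the highest array for 25 of the 38 members above background, beside 35.5% of all genes above background, replicate 3 for 11 (beside 40.8%) and replicate 1 for 2 (beside 23.6%), Abcd2 and Hsd17b4. Replicate 1 was the lowest array for 22 of the 38, beside 44.7% of all genes above background. The median departure from the mean of a gene was 0.026 in replicate 2 for the members and 0.0064 for all genes above background. Among genes at a level of at least 10, replicate 2 was highest in 21 of 31 members, beside 38.6% of all such genes, and without the probe sets that can bind other transcripts (IDs ending in _s_at or _x_at) in 26 of 37 members, beside 35.7%. Replicate 2 was highest in 9 of 11 peroxin genes, 5 of 5 shuttle genes and 4 of 4 auxiliary enzyme genes. In the 5 genes from hydratase to thiolase replicate 2 was highest in 1 and replicate 3 in 4, but without _s_at and _x_at probe sets replicate 2 was highest in 3, with Hadhb and Hadh added, and replicate 3 in 2. Replicate 2 was highest in 1 of 3 flavoprotein genes. In the 6 genes of peroxisomal oxidation and transport it was highest in 2 and lowest in 4, with a median departure of -0.051. Without _s_at and _x_at probe sets it was highest in 1 of 5 and lowest in 3, and Hsd17b4 was highest in replicate 3. Members share the same 3 arrays and are no independent replicates, so these counts describe the arrays and were not tested.

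**Figure D4:**
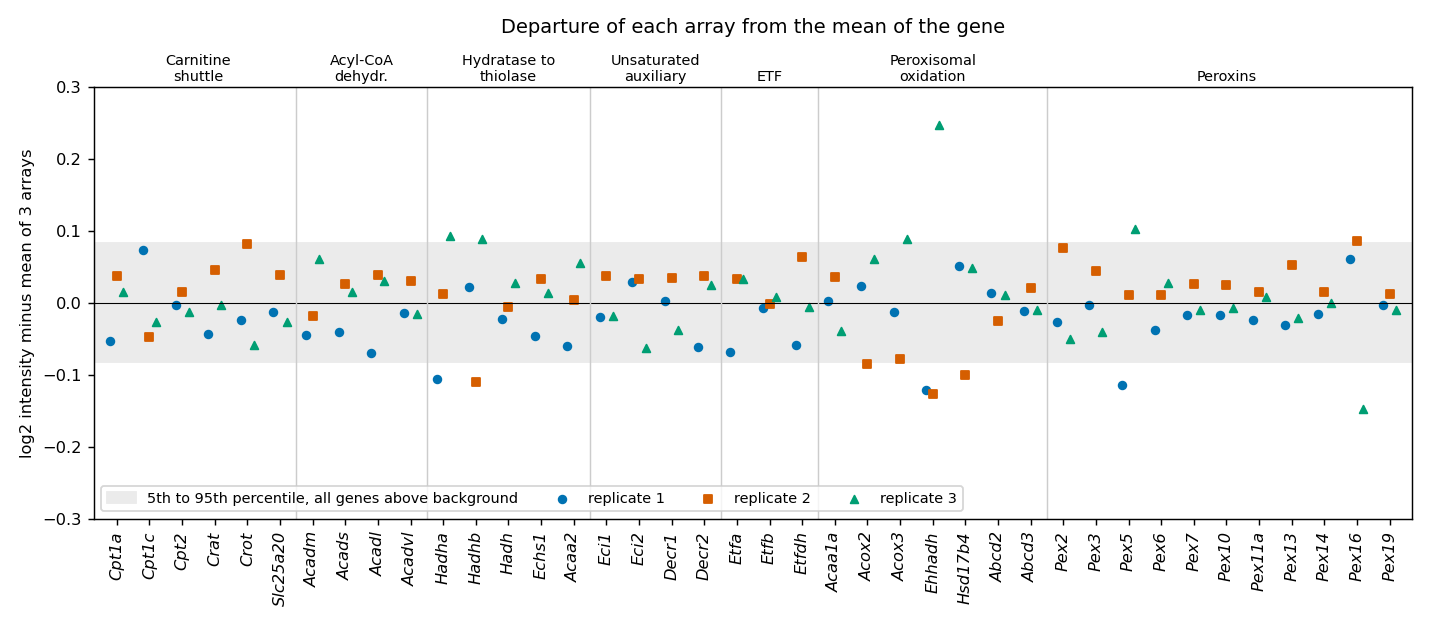
Log2 intensity of each replicate minus the mean of the 3 arrays (y axis) for each of the 40 genes (x axis, grouped by role), with the 5th to 95th percentile of all departures of genes above background, -0.083 to 0.083, as a grey band. Replicate 2 lies at the top in most carnitine shuttle, auxiliary enzyme and peroxin genes. Replicate 3 of Ehhadh lies far above its other arrays, but Ehhadh was not above background, and the band does not cover such genes.

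Genes around the pathway were counted by the same rule. Of 11 genes for fatty acid uptake and activation, 7 were above background, and the long-chain synthetase gene Acsl6 and the transporter genes Slc27a2, Slc27a3 and Slc27a5 were not. Of 8 acyl-CoA thioesterase genes 6 were above it, without Acot1 and Acot4. Of 6 genes for carnitine transport and synthesis 4 were above it, among them the carnitine transporter gene Slc22a5 at 10.14, 10.21 and 10.21, and those not above it were Slc22a4 and Bbox1, which encodes the last enzyme of carnitine synthesis. All 7 other acyl-CoA dehydrogenase genes were above background.

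Of 11 genes around malonyl-CoA, the inhibitor of the Cpt1a product, and the kinase AMPK, 9 were above background. Acacb, which makes malonyl-CoA at mitochondria, was at 8.21, 8.34 and 8.32, with 1 of its 2 probe sets above the limit. Acaca, which makes malonyl-CoA too, was at 10.86, 10.84 and 10.90, also with 1 of 2 above it. Mlycd, which degrades malonyl-CoA, was at 10.33, 10.38 and 10.36. The AMPK subunit genes Prkaa2 and Prkag3 were not above background. Of 10 PPAR regulators 9 were, including Pparg, the main PPAR of adipocytes, at 12.80, 12.75 and 12.67. Ppara, the main PPAR of liver, was at 6.20, 6.22 and 6.20, below the limit with each of its 3 probe sets. Of 3 measured ketone body genes, Oxct1 and Acat1, which serve ketone use, were above background, and Bdh1 was not.

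Of 20 other genes for peroxisomal enzymes, 15 were above background. The exceptions were the fatty acyl-CoA reductase gene Far2, the D-amino acid oxidase gene Dao, the D-aspartate oxidase gene Ddo, the hydroxyacid oxidase gene Hao1 and the pipecolic acid oxidase gene Pipox. All 7 genes for other peroxisomal membrane proteins and for fission were above it. Over these 9 surrounding lists the share above background ran from 63.6% to 100%, beside 54.4% of all genes.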

How the data were processed

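RNA from 3 samples of glucose oxidase-treated 3T3-L1 adipocytes was measured on the mouse4302 Affymetrix array (45101 probe sets). The deposited intensities come from the authors' use of RMA (Robust Multi-array Average, for background correction and normalization) in the affyPLM package. The package's version, which arrays were normalized together and any later scaling are not given in the sources used here. The values are on a linear scale, with medians of 126.9 to 127.6, although RMA usually gives log2 values. The number of arrays limits the precision.

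Here log2 was taken of each value. Gene names came from the annotation of the platform, in which 34958 probe sets have 1 gene, 932 several and 9211 none. The symbols of the 40 measured members matched RefSeq genes of GRCm38.p6 by Entrez identifier. The members and lists were chosen with earlier results of these data known. Each member is accounted for. Values per array were given by rule for members not above background, with a range over 0.2, with probe sets on both sides of the limit, or in the shuttle, flavoprotein, peroxisomal oxidation and peroxin roles, and the other members were added after their values were seen. For the surrounding lists, genes not above background were named, and the few others were chosen after their values were seen. With 1 group there was no comparison between conditions and no test. The code for the calls and SDs was checked on simulated arrays of known level and SD. Upstream windows are the 250 bases before each RefSeq start, taken over 27025 genes.

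Alternatives were other background limits and genes, other rules for several probe sets, omission of cross-hybridising probe sets (IDs ending in _s_at or _x_at), quantile normalization, centring and leaving out each array. Those for the highest array (by role too), and the subset of genes at a level of at least 10, were added after the data were seen. Python 3.11.15 with pandas 2.3.3, numpy 2.4.6 and matplotlib 3.10.9 was used.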

Additional observations from a re-analysis of the deposited data

How the results depend on the processing

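No paired analysis was possible because there was only 1 group of arrays. The number of members above background, 38, was 35 to 39 under each alternative but one, where the share of all genes ran from 43.8% to 57.3%. The number was 28 when every probe set of a gene had to pass, where 5697 of all genes (31.3%) passed in place of 9889. With the median of probe sets, Etfdh, Acox3 and Abcd3 were not above background, at 7.56, 7.66 and 7.48. Cpt1c was above it only with the 90th percentile as the limit (7.39). Without the probe sets ending in _s_at or _x_at, Acaa1a had none left. The members with a range over 0.2, 2 in all, were 1 with the median of probe sets (Abcd2, at 0.26), 3 with centring (Hadha added), and between 0 and 2 when any single array was omitted. Of all genes above background the shares were 7.7%, 7.6% and 2.0% to 4.6%. With quantile normalization the members past 0.2 were Hadhb and Pex16, beside 6.8% of all genes above background. With replicate 3 left out neither Pex5 nor Pex16 was among them, and with replicate 1 left out only Pex16 was. The median SD of members, 0.043, was 0.038 to 0.049 under the other settings and 0.028 to 0.034 when any single array was omitted. It was 0.033 without replicate 1, 0.028 without replicate 2 and 0.034 without replicate 3, beside 0.038, 0.043 and 0.035 for all genes above background. Replicate 2 stayed the highest array for most members. This was 20 of 35 with the median of probe sets, beside 36.5% of all genes above background. Without _s_at and _x_at probe sets it was 26 of 37, beside 35.7%. With quantile normalization it was 20 of 38, beside 32.3%, and with centring 25 of 38, beside 37.3%. Reading each level as the median over probe sets shifted 22 of the 40 by over 1 SD and 14 by over 1.5-fold, the largest by -3.68 (Acadl). Without _s_at and _x_at probe sets 1 of 39 moved by over 1.5-fold (Hadh, to 12.44). Signal near the limit restricts what can be said of Cpt1c, Acox2 and Acox3.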

Other observations

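Probe sets of the members differed by kind in replicate 2, a pattern noticed in the data and given as values only. Affymetrix IDs ending in _x_at mark probe sets whose probes can bind other transcripts. Of the members' 10 such probe sets above background, 5 were lowest in replicate 2, while of their 41 probe sets with the plain ending _at 3 were. Over all genes the shares were 33.6% of 1153 and 24.3% of 10828. In 7 members both an _x_at and another probe set were above background. Replicate 2 minus the mean of the other arrays was lower in the _x_at probe sets for 6 of these 7, with Abcd2 as the exception. The median difference was -0.14 in log2 units, beside -0.019 over the 751 genes that allow this comparison, of which 61.9% were lower. In Hadhb replicate 2 stood at -0.17 with the _x_at probe set and at 0.10 with the other one, and in Cpt1a at -0.16 and 0.057. In Hsd17b4 it stood at -0.15 and 0.014. The levels given for Hadhb, Hadh, Hsd17b4 and Acaa1a come from _x_at probe sets. The part of the kind of probe set in the lean to replicate 2 was not tested beyond the count of 26 of 37 without _s_at and _x_at probe sets.

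Of the 17 members with several probe sets above background, 5 had the same highest array in each of them (29.4%), beside 37.0% of 3874 genes.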
